A study of Mus musculus with 4 samples.

Results

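The genes described here act, or belong to families that act, in the fusion step that shapes the semicircular canals. They are the netrin genes Ntn1 and Ntn4, the netrin receptor genes Neo1, Dcc, Unc5b and Unc5c, the Lrig genes Lrig1, Lrig2 and Lrig3, and the hyaluronan synthase gene Has2. They were chosen by name, 10 of the 34866 genes in the deposited table, and all 10 were found there by their Ensembl identifiers. The samples were otic vesicles, the epithelial sacs that form the inner ear, of mouse embryos (strain C57/BL6) collected at embryonic day 11.5. The series has 2 libraries of wild-type vesicles (WT 1 and WT 2) and 2 of vesicles from Meis2 mutants (KO 1 and KO 2), and the values of a pair are given below in the order of these numbers. Meis2 encodes a homeodomain transcription factor. The sources used here do not state which part of the gene is mutated, whether all cells carry the mutation, or how many vesicles were pooled per library. The p-values therefore reflect the spread between these libraries, some of which may be technical.

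Each semicircular canal begins as a flat pouch of otic epithelium. Facing walls of the pouch approach each other, their basement membranes break down, and the epithelial plate that forms is cleared away so that a tube remains. Netrin-1, a secreted laminin-related protein better known as an axon guidance cue, is needed for that breakdown in the mouse. Lrig3, a membrane protein with leucine-rich repeats and immunoglobulin domains, restricts where Ntn1 is expressed in the pouch. Hyaluronan, the large sugar polymer made by the synthase Has2, is classically described as filling the space that pushes the canal walls inward. At the stage sampled here the vesicle is only beginning to form its canal pouches.

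In short, all of the genes but Dcc were above 1 TPM on average, Neo1 was the most abundant, and none passed the test between genotypes. Lrig1, which encodes a negative regulator of receptor tyrosine kinases, was 27.3% higher on average in KO than in WT, with little spread within a genotype. Unc5c was 17.1% higher. Ntn1 was 29.7% lower, with KO 2 well below KO 1. Set against the summed epithelial markers, which were lower in KO too, Ntn1 overlapped between the genotypes, with only KO 2 below WT. With the marker Oc90 left out of that sum, both KO libraries lay below WT, KO 1 by little. Lrig3, Lrig2, Has2, Ntn4 and Dcc overlapped between genotypes.

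Promoter sequences of Lrig1 and Lrig3 are shown because, in this family, Lrig1 was without overlap between the genotypes and Lrig3 overlapped. Lrig1 was not tested against Lrig3. The sequence of Unc5b is shown because Unc5b stood opposite to Unc5c (values below). Windows were taken as the 250 bases before the start site of RefSeq on GRCm38.p6. The GENCODE genes, whose coordinates are given with the values, can start elsewhere: 13 bases of the Lrig1 window, 51 of the Lrig3 window and all 250 of the Unc5c and Ntn4 windows lie inside the GENCODE gene. For Lrig1, Lrig3 and Unc5b only bases before both starts are printed, 5′ to 3′ on the gene's strand, with each CG dinucleotide in capitals. They lie at chr6:94700159-94700395 (minus strand) for Lrig1, chr10:125965969-125966167 (plus) for Lrig3 and chr10:60831582-60831831 (minus) for Unc5b.
Lrig1: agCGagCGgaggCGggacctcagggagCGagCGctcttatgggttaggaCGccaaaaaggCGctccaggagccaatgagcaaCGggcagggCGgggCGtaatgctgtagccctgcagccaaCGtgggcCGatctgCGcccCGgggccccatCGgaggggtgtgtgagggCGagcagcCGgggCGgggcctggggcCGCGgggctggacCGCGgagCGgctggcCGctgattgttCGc
Lrig3: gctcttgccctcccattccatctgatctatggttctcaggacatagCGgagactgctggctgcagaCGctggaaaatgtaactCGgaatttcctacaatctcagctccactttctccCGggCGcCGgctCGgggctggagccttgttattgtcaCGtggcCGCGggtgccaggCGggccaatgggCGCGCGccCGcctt
Unc5b: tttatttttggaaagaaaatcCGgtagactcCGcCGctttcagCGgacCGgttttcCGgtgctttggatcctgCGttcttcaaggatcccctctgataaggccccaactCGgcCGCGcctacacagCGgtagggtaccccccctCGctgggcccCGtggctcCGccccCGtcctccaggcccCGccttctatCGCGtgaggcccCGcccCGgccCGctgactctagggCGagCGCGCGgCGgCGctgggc

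The whole windows held 26 CG in Lrig1, 27 in Lrig3, 23 in Unc5c and 27 in Unc5b, against a median of 6 over 32851 windows of the same length. As many CG as in Lrig3 or Unc5b were found in 8.56% of all windows, as many as in Lrig1 in 9.59% and as many as in Unc5c in 13.3%. Windows were at hand for 7 of the 10 genes. The Neo1 window was the richest, with 45 CG and a G+C content of 83.2%, and 0.405% of windows held as many. The letters TGACAG, the core sequence that Meis proteins bind, were searched on both strands. They were found in 15.9% of all windows and in 1 of the 7, that of Ntn4, where they lie on the minus strand, 119 bases before the RefSeq start site and inside the gene as GENCODE gives it. That stretch (chr10:93640918-93640947, plus strand) is shown with the match, read on the plus strand, in capitals.
Ntn4: tgcaccgcccggCTGTCAagcgcggggggc

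A match in a short window is a description of letters and was not compared with binding data.

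The 4 libraries held otic epithelium. All 11 of its markers were above 0 in every library, and Oc90, which encodes the main otoconial matrix protein, ranged from 561 to 912 TPM. Markers of other cells were present too: Col3a1 of mesenchyme ranged from 280 to 467 TPM, and Tubb3 of neurons from 85.2 to 296 TPM. The most abundant of these were erythroid: 8 markers summed to 10763 and 25681 TPM in the WT pair and 13323 and 15095 TPM in the KO pair, with WT 2 apart from the rest. Of the marker genes looked up, only Nkx2-2 (ventral neural tube) and Krtdap (epidermis) were listed at 0 in all 4 libraries. Other markers of those tissues were present. Of 7 hindbrain markers 2 averaged 1 TPM or more, and Zic1, the most abundant, was at 106, 77.2, 146 and 129 TPM (WT 1, WT 2, KO 1, KO 2). Zic2 was at 62.8, 44.1, 87.3 and 62.7 TPM. The others were near 0: Egr2, Pax6, Olig2 and Olig3 averaged 0.691, 0.631, 0.0752 and 0.0889 TPM. Egr2 was lower in both KO libraries than in both WT libraries. Of 6 surface ectoderm markers 2 averaged 1 TPM or more. Perp was at 12.9, 6.84, 9.95 and 4.15 TPM and Krt15 at 0.934, 2.78, 1.61 and 1.13 TPM in the same order. Krt5, Trp63 and Krt14 averaged below 1 TPM and were highest in KO 1. Krt5 was at 0.149, 0.0544, 3.28 and 0.112 TPM and Trp63 at 0.0439, 0.221, 1.29 and 0.0328 TPM. Krt14 was at 0.0563, 0.114, 0.802 and 0 TPM. The summed level of the 11 epithelial markers was 1883 and 1721 TPM in the WT pair and 1429 and 1539 TPM in the KO pair, and 7 of the 11 were lower in both KO libraries than in both WT libraries, where 10.5% of all genes tested were. The sum of 11 mesenchyme markers was 1040, 882, 1446 and 971 TPM in the same order, and that of 10 neuronal markers 350, 600, 283 and 882 TPM. In such bulk samples, fewer cells of a type and less RNA per cell cannot be told apart. Meis2 itself stood at 79.0 and 88.7 TPM in the WT pair and at 73.2 and 76.6 TPM in the KO pair, which does not show whether a part of its transcript was lost.

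The genes differed widely in level. TPM is scaled by transcript length, so levels of different genes can be set beside each other. Averaged over the 4 libraries, Neo1 stood at 55.5 TPM, Unc5c at 33.2, Unc5b at 26.7, Lrig3 at 25.8, Lrig1 at 19.5, Lrig2 at 14.7, Has2 at 12.5, Ntn1 at 6.43, Ntn4 at 2.55 and Dcc at 0.515 TPM. The ranges of neighbours in this order over the 4 libraries did not overlap, with 2 exceptions: those of Unc5b and Lrig3 overlapped, and so did those of Lrig2 and Has2. Neo1 lay above 77.5% of the 14496 genes tested and Ntn1 above 26.4%. Neo1, Unc5b and Unc5c stood above both netrins in every library, and Dcc below them, as the plot of levels by library shows.

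**Figure D1:**
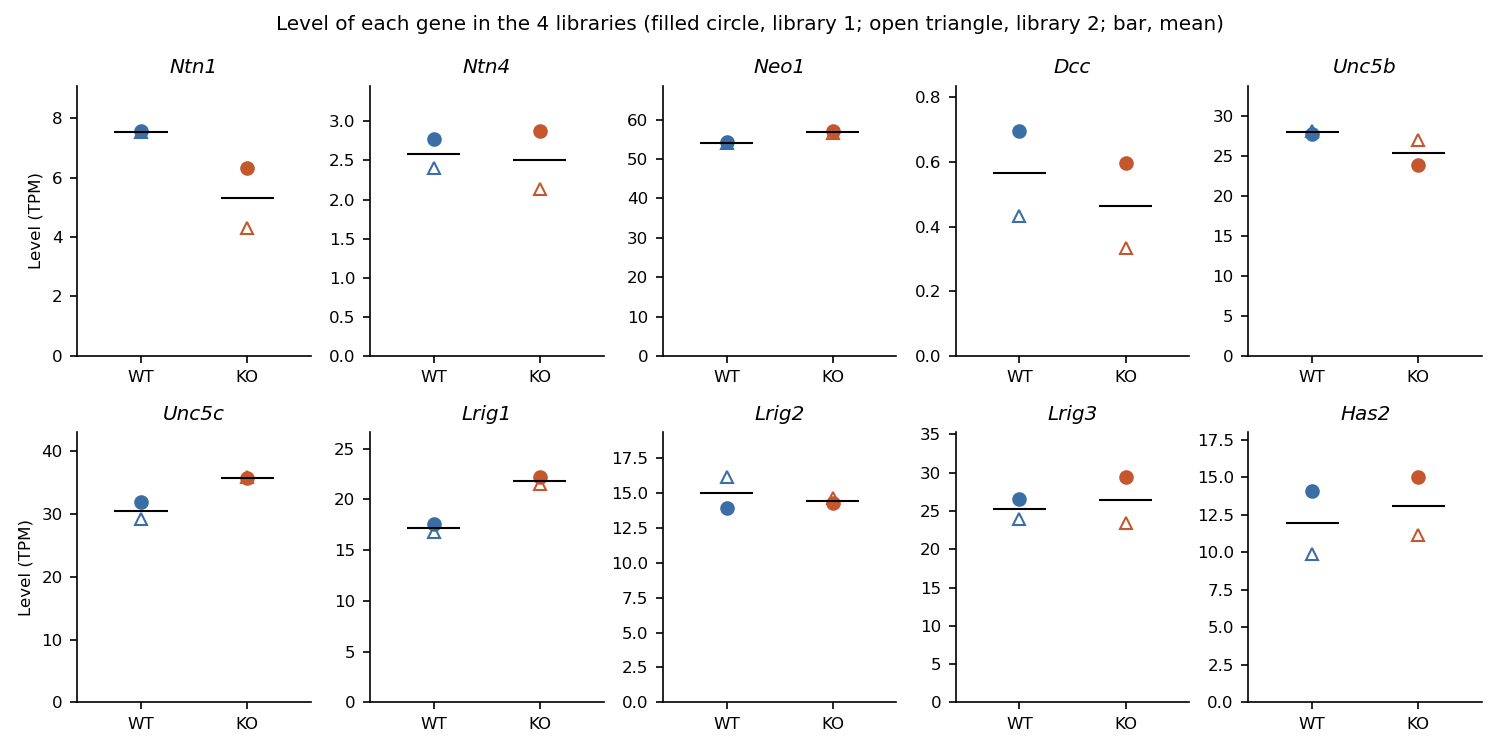
Level in TPM (vertical axes, each from 0) of the 10 genes in WT (blue) and KO (orange). Filled circles are WT 1 and KO 1, open triangles WT 2 and KO 2, and bars the mean of 2 libraries. Lrig1 and Unc5c were higher in both KO libraries, and Ntn1 was lower with KO 2 lowest. Has2, Lrig3, Ntn4 and Dcc were lower in both libraries numbered 2 than in both numbered 1.

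Over all genes, the fit of KO against WT was made with limma on log2(TPM + 1) for the 14496 genes that averaged 1 TPM or more. It called 0 genes, 0% of those tested, at an adjusted p under 0.05. The 9 tested genes of the canal group were therefore all uncalled, each with an adjusted limma p of 1.00, and Dcc was below the filter. At an unadjusted limma p under 0.05 there were 507 genes, 3.50% of those tested, and 1 of them, Lrig1, was in the canal group. For 5 of the 9 genes the KO pair lay wholly outside the WT pair, 3 higher and 2 lower. Of all genes tested 29.8% were likewise without overlap, 19.2% with KO higher and 10.5% with KO lower. The 95% intervals below are those of limma for single genes, without adjustment for the number of genes. With 2 libraries against 2, no exact test of a single gene can give a two-sided p below 0.333.

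Among the ligands, Ntn1 (ENSMUSG00000020902.12, chromosome 11, 68209364 to 68400823, GRCm38) stood at 7.57 and 7.53 TPM in the WT pair and at 6.32 and 4.29 TPM in the KO pair. The WT libraries were nearly equal, both KO libraries lay below them, and the gap between KO 1 and KO 2 was larger than that between KO 1 and WT. The WT mean was 7.55 ± 0.0269 TPM and the KO mean 5.31 ± 1.43 TPM (SD, n = 2 each). On the log2 scale KO minus WT was -0.46 (SE 0.20), with a 95% interval from -0.99 to 0.08. It was -0.22 without KO 2 and -0.69 without KO 1.

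The epithelial markers were lower in KO as well, so the level of Ntn1 was also set against them. Per 1000 TPM of the 11 epithelial markers, Ntn1 stood at 4.02 and 4.37 in the WT pair and at 4.43 and 2.79 in the KO pair. On that scale KO 1 lay above both WT libraries and only KO 2 lay below. Oc90 makes up much of that sum, and without it the values were 7.79, 7.55, 7.29 and 4.58 in the same order, with KO 1 just under WT. The part of the epithelial share in the Ntn1 difference was not tested beyond these ratios.

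Ntn4 (ENSMUSG00000020019.4, chromosome 10, 93640681 to 93747207), a netrin of basement membranes that binds laminin, stood at 2.78 and 2.40 TPM in the WT pair and at 2.88 and 2.14 TPM in the KO pair. The genotypes overlapped, with the libraries numbered 1 above those numbered 2. Their log2 difference was -0.04, with a 95% interval from -0.61 to 0.53. Ntn1 made up 73.2% and 75.8% of the summed TPM of the 2 netrins in the WT pair, against 68.7% and 66.8% in the KO pair. Of the other netrin genes, Ntn5 was at 0.223 TPM at most, and Ntn3 was not analysed here. The netrin-G genes, whose membrane-anchored products do not bind the receptors above, were more abundant than Ntn4: Ntng1 stood at 4.31 and 3.56 TPM in the WT pair and at 4.82 and 3.25 TPM in the KO pair, and Ntng2 at 24.7 and 32.7 TPM and at 14.5 and 46.2 TPM. Both overlapped between the genotypes.

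Among the receptors, Neo1 (ENSMUSG00000032340.8, chromosome 9, 58874687 to 59036441) encodes neogenin, which binds netrins and the repulsive guidance molecules. It stood at 54.2 and 54.0 TPM in the WT pair and at 57.1 and 56.6 TPM in the KO pair. Libraries of one genotype were nearly equal, and KO was 5.07% higher on average. Its log2 difference was 0.07, with a 95% interval from -0.11 to 0.25. This interval holds both a small decrease and an increase, so an equal level is not shown.

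Dcc (ENSMUSG00000060534.15, chromosome 18), the netrin receptor of commissural axons and a close relative of neogenin, stood at 0.70 and 0.43 TPM in the WT pair and at 0.60 and 0.33 TPM in the KO pair. It was not tested because its mean was below 1 TPM. The genotypes overlapped, and the libraries numbered 1 were the higher ones in each genotype. The neuronal marker sums given above were higher in the libraries numbered 2, and the part of neurons in the Dcc levels was not tested.

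Unc5c (ENSMUSG00000059921.15, chromosome 3, 141465216 to 141834924), whose product mediates repulsion by netrin, stood at 31.9 and 29.2 TPM in the WT pair and at 35.7 and 35.8 TPM in the KO pair. Both KO libraries lay above both WT libraries and were almost equal. Its log2 difference was 0.22 (SE 0.086), with a 95% interval from -0.01 to 0.45. Within the libraries numbered 1 the difference was 0.16 and within those numbered 2 it was 0.29.

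Unc5b (ENSMUSG00000020099.8, chromosome 10, 60762593 to 60831581), a receptor of the same family that is also known from endothelium, stood at 27.8 and 28.2 TPM in the WT pair and at 23.9 and 27.0 TPM in the KO pair. Both KO libraries were lower, KO 2 by little. This was a log2 difference of -0.13, with a 95% interval from -0.39 to 0.12, and it was -0.05 without KO 1 and -0.22 without KO 2. The 7 endothelial markers summed to 156 and 180 TPM in the WT pair and to 199 and 152 TPM in the KO pair. On average 6 of the 7 were higher in KO, against 61.6% of all genes tested. Of these, 3 were higher without overlap, against 19.2% of all genes tested. Pecam1 alone was lower in both KO libraries, at 42.2 and 54.9 TPM in the WT pair and 38.7 and 31.3 TPM in the KO pair. The part of endothelium in the Unc5b difference was not tested.

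Because Unc5b and Unc5c stood on opposite sides, their proportion differed more than either level. The ratio of Unc5c to Unc5b was 1.15 and 1.04 in the WT pair and 1.50 and 1.33 in the KO pair, and a ratio within a library does not depend on how libraries are scaled. The mean was 1.09 ± 0.0788 (SD, n = 2) in WT and 1.41 ± 0.120 (SD, n = 2) in KO, without overlap (smallest exact two-sided p possible, 0.333). Each gene was already without overlap, in opposite directions, so the ratio could not overlap and adds no separate evidence. Summed over the 4 Unc5 genes the level was 61.0 and 58.6 TPM in the WT pair and 61.5 and 63.9 TPM in the KO pair. Unc5b and Unc5c together made up at least 97.0% of it in every library, so Unc5a and Unc5d contributed little.

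**Figure D2:**
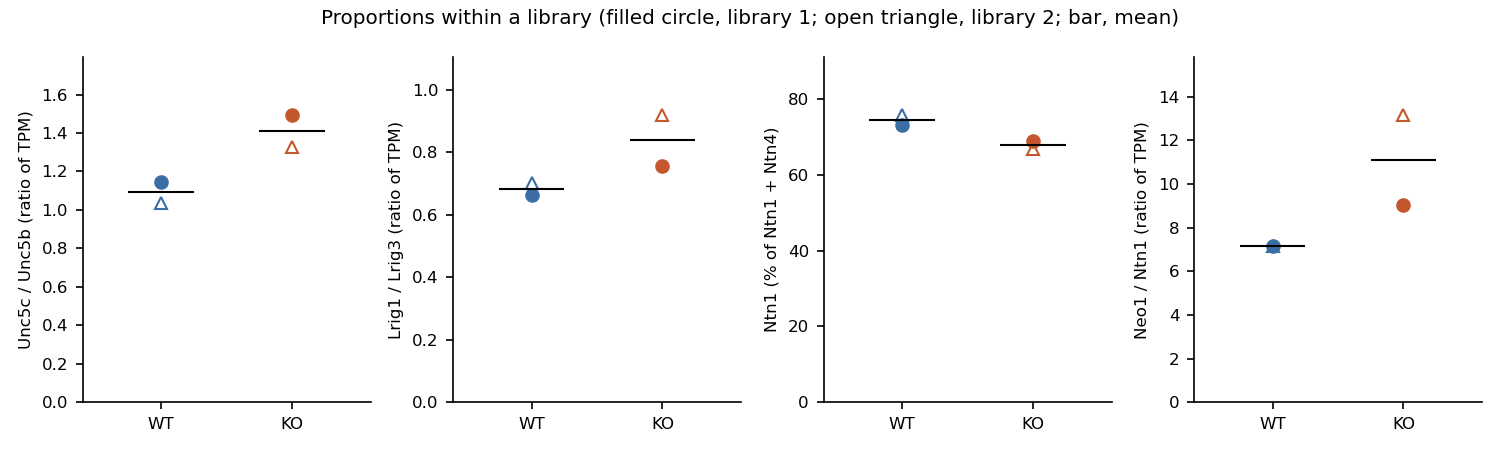
Proportions of pairs of genes within each library, from left to right Unc5c to Unc5b, Lrig1 to Lrig3, Ntn1 as a percentage of Ntn1 and Ntn4, and Neo1 to Ntn1 (vertical axes from 0). Symbols are as in the plot of levels. WT and KO did not overlap in any of the 4, which were chosen after values were seen. For Unc5c to Unc5b and for Neo1 to Ntn1 this follows from the order of the single genes. KO 2 stood apart from KO 1 for Neo1 to Ntn1, at 13.2 against 9.03.

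Of the Lrig family, 1 member was without overlap between the genotypes and 2 overlapped. Lrig1 (ENSMUSG00000030029.14, chromosome 6, 94604529 to 94700158) stood at 17.6 and 16.7 TPM in the WT pair and at 22.2 and 21.5 TPM in the KO pair. The gap between genotypes was several times that between libraries of a genotype. The WT mean was 17.2 ± 0.588 TPM and the KO mean 21.8 ± 0.457 TPM (SD, n = 2 each). The log2 difference was 0.33 (SE 0.092), with a 95% interval from 0.09 to 0.57. It lay between 0.30 and 0.36 when any 1 library was left out. Within the libraries numbered 1 it was 0.32 and within those numbered 2 it was 0.34.

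Mesenchyme markers were also higher on average in KO for 10 of 11 genes, against 61.6% of all genes tested. Without overlap 3 were higher and 1 lower, against 19.2% and 10.5% of all genes tested. KO 2 minus KO 1 was -0.38 for the mean log2 level of the mesenchyme markers and -0.04 for Lrig1. Of the 6 neural crest and glial markers, 3 were higher in both KO libraries, against 19.2% of all genes tested, and 0 lower in both, and the sum of all 6 was 108 and 107 TPM in the WT pair and 106 and 115 TPM in the KO pair. The part of either cell type in the Lrig1 difference was not tested.

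Lrig3 (ENSMUSG00000020105.9, chromosome 10, 125966168 to 126015359), the family member known for canal defects when lost, stood at 26.5 and 23.9 TPM in the WT pair and at 29.4 and 23.4 TPM in the KO pair. KO 1 was the highest library and KO 2 the lowest, and both libraries numbered 1 lay above both numbered 2. On the log2 scale the genotypes differed by 0.06, with a 95% interval from -0.31 to 0.43, and the difference was -0.10 without KO 1 and -0.02 without WT 2. Lrig2 (ENSMUSG00000032913.13, chromosome 3, 104396418 to 104511918), whose product protects neogenin from cleavage by the protease ADAM17, stood at 13.9 and 16.1 TPM in the WT pair and at 14.3 and 14.6 TPM in the KO pair. Both KO libraries lay between the WT libraries. On the log2 scale the genotypes differed by -0.05, with a 95% interval from -0.36 to 0.26, and the difference was 0.05 without WT 2.

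Lrig3 was the most abundant of the family in every library. Lrig1 made up 30.3% and 29.5% of the summed Lrig level in the WT pair and 33.7% and 36.2% in the KO pair, without overlap. The ratio of Lrig1 to Lrig3 was 0.663, 0.701, 0.755 and 0.920 in the same order.

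Has2 (ENSMUSG00000022367.7, chromosome 15, 56665627 to 56694539) stood at 14.1 and 9.89 TPM in the WT pair and at 15.0 and 11.2 TPM in the KO pair. The libraries numbered 1 were the high ones in both genotypes, and the genotypes overlapped. The log2 difference was 0.12 (SE 0.23), with a 95% interval from -0.47 to 0.72. It was 0.09 within the libraries numbered 1 and 0.16 within those numbered 2. Between the numbers it was larger, -0.47 for WT 2 minus WT 1 and -0.39 for KO 2 minus KO 1. The mean log2 level of the mesenchyme markers differed by -0.28 and -0.38 in the same pairs, and that of the neuronal markers by 0.65 and 1.49. The part of either cell type in the Has2 levels was not tested. The difference between genotypes turned to -0.07 without KO 1 and to -0.11 without WT 2. Has2 made up 90.5% and 88.4% of the summed level of the 3 synthase genes in the WT pair and 93.6% and 80.2% in the KO pair. In KO 2 Has3 was at 1.92 TPM and Has1 at 0.83 TPM, the highest values of both.

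**Figure D3:**
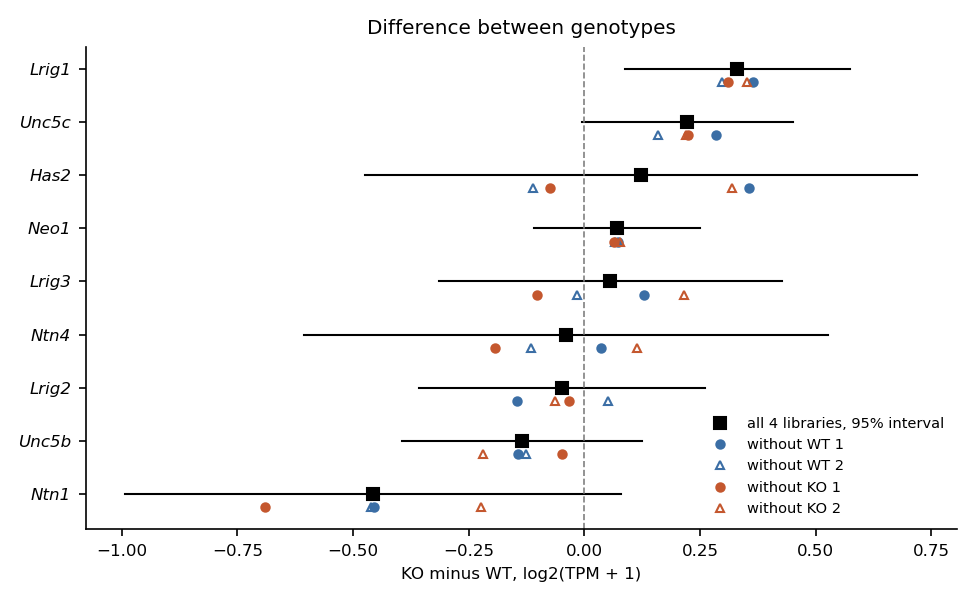
Difference KO minus WT on the log2(TPM + 1) scale for the 9 tested genes (black squares, with 95% intervals from limma) and with each library left out (small symbols below). The interval of Lrig1 lies above 0, from 0.09 to 0.57, those of the other 8 include 0, and the differences of Has2, Lrig3, Ntn4 and Lrig2 change sign with the library left out.

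Taken within the library numbers, the difference had the same sign in both numbers for 7 of the 10 genes. Lrig1, Unc5c, Has2 and Neo1 were higher in KO in both, and Ntn1, Unc5b and Dcc were lower in both. For Ntn1 it was -0.23 in number 1 and -0.69 in number 2. Lrig3 was at 0.14 and -0.03, Lrig2 at 0.04 and -0.13, and Ntn4 at 0.04 and -0.12. Nothing in the labels ties WT 1 to KO 1 beyond the number.

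**Figure D4:**
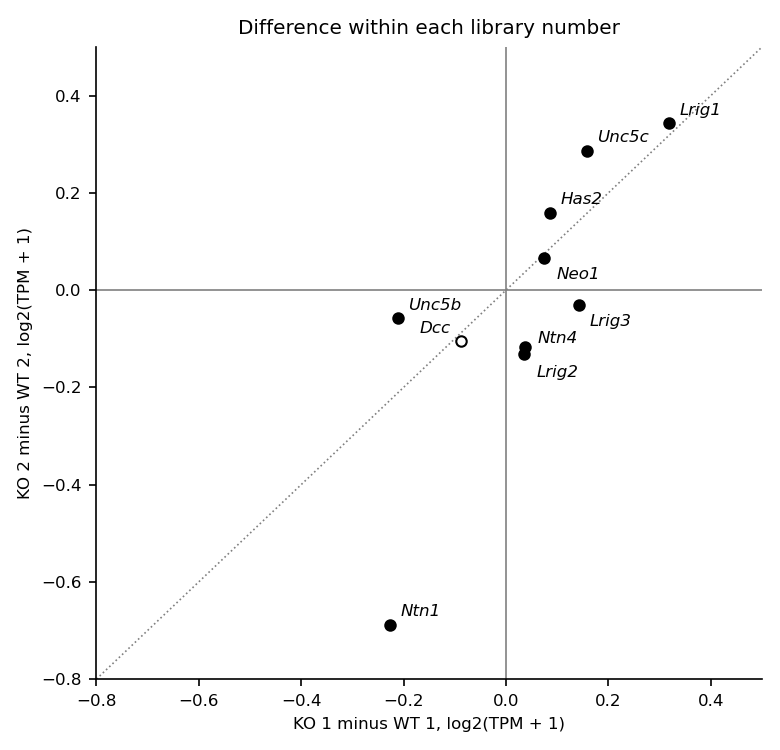
Difference KO 1 minus WT 1 (horizontal) against KO 2 minus WT 2 (vertical) on the log2(TPM + 1) scale for the 10 genes, with Dcc, which was not tested, as an open circle. Lrig1 and Neo1 lie close to the dotted line of equal differences, at 0.32 and 0.34 for Lrig1, and Ntn1 lies far below it.

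The surrounding pathways were read from 5 lists, whose counts without overlap stand against 19.2% of all genes tested with KO higher and 10.5% with KO lower. The lists were chosen with earlier results of these data known, so a share that departs from these is no test of a pathway. Over all genes tested the median log2 difference was 0.03, and 61.6% of genes were higher in KO; 0 genes of any list passed the adjusted limma test. Of the other netrin pathway genes 16 were tested, 9 higher and 7 lower, with a median of 0.0031, and 2 did not overlap, both higher. Trio, which encodes a guanine nucleotide exchange factor that acts downstream of Dcc, stood at 96.2 and 96.2 TPM in the WT pair and at 119 and 141 TPM in the KO pair, a log2 difference of 0.43 (SE 0.10). Rgmb, which encodes a ligand of neogenin and co-receptor for bone morphogenetic proteins (BMPs), was at 20.4, 19.6, 21.8 and 25.5 TPM. Both were higher in each KO library than in either WT library.

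Of the hyaluronan genes other than Has2, which make, bind or degrade it, 18 were tested, 15 higher and 3 lower, with a median of 0.09, and 4 were higher and 3 lower without overlap, the higher share being near that of all genes. Tnfaip6, whose product crosslinks hyaluronan chains, stood at 15.7 and 13.1 TPM in the WT pair and at 23.5 and 19.2 TPM in the KO pair, a log2 difference of 0.53 (SE 0.15). Vcan, the hyaluronan-binding proteoglycan versican, was at 104, 107, 116 and 123 TPM. Both were higher in each KO library than in either WT library, whereas Has2 overlapped. Cemip, Hapln3 and Hyal2 were lower in each KO library than in either WT library. Cemip was at 5.34, 6.09, 3.38 and 4.73 TPM and Hapln3 at 3.68, 4.63, 3.51 and 2.31 TPM. Tnfaip6 was lower in the libraries numbered 2 of each genotype, as was Has2.

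Of the genes linked to Lrig proteins, which are receptors of growth factors and BMPs and the protease Adam17, 11 were tested, 9 higher and 2 lower, with a median of 0.09, and 4 were higher without overlap. Lrig1 is known to promote the breakdown of ErbB receptor proteins, which RNA levels do not show. Erbb2 stood at 24.5 and 23.4 TPM in the WT pair and at 27.4 and 27.4 TPM in the KO pair, and Egfr at 2.78, 1.96, 3.42 and 3.22 TPM. These were higher in each KO library than in either WT library, as Lrig1 was, and their log2 differences were 0.19 (SE 0.084) and 0.37 (SE 0.21). Erbb3, the most abundant of the 4 ErbB genes, was at 62.6, 64.8, 52.8 and 62.8 TPM, overlapping between the genotypes with a log2 difference of -0.14 (SE 0.11), and Erbb4 was under 1 TPM in every library. Pdgfra and Erbb3 of this list also served as markers of mesenchyme and glia.

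The canal morphogenesis list, mostly transcription factors and growth factors of the pouch and of the mesenchyme around it, leaned the other way. Of 30 tested genes 9 were higher and 21 lower, with a median of -0.09, and 10 were lower and 2 higher without overlap. Lmx1a, a LIM homeodomain factor of the dorsal vesicle, stood at 71.8 and 73.9 TPM in the WT pair and at 59.8 and 60.2 TPM in the KO pair, a log2 difference of -0.28 (SE 0.067). Gata3, a zinc finger factor of canal and cochlear epithelium, was at 45.4, 46.7, 32.9 and 38.9 TPM. The epithelial marker sums given above were lower in KO too, and the 2 lists share genes, Dlx5 and Eya1 among them. The mesenchyme markers Prrx1, Prrx2 and Pou3f4 are in the canal list as well.

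Basement membrane genes, whose products form the sheets that break down at fusion, were mostly higher in KO. Of 15 tested 13 were higher and 2 lower, with a median of 0.17, and 6 were higher and 1 lower without overlap. All 7 laminin chains in the list were higher on average, 5 of them without overlap, a set singled out after the values were seen. Lama4 stood at 9.55 and 11.0 TPM in the WT pair and at 16.5 and 14.3 TPM in the KO pair, a log2 difference of 0.54 (SE 0.14). Lamc1, the gamma chain that most laminins share, was at 27.1, 34.3, 41.6 and 48.8 TPM. In Lama4 the highest library was KO 1, which also had the highest mesenchyme and endothelial marker sums, whereas Lamc1 was highest in KO 2. The part of those cells in the list's values was not tested.

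**Figure D5:**
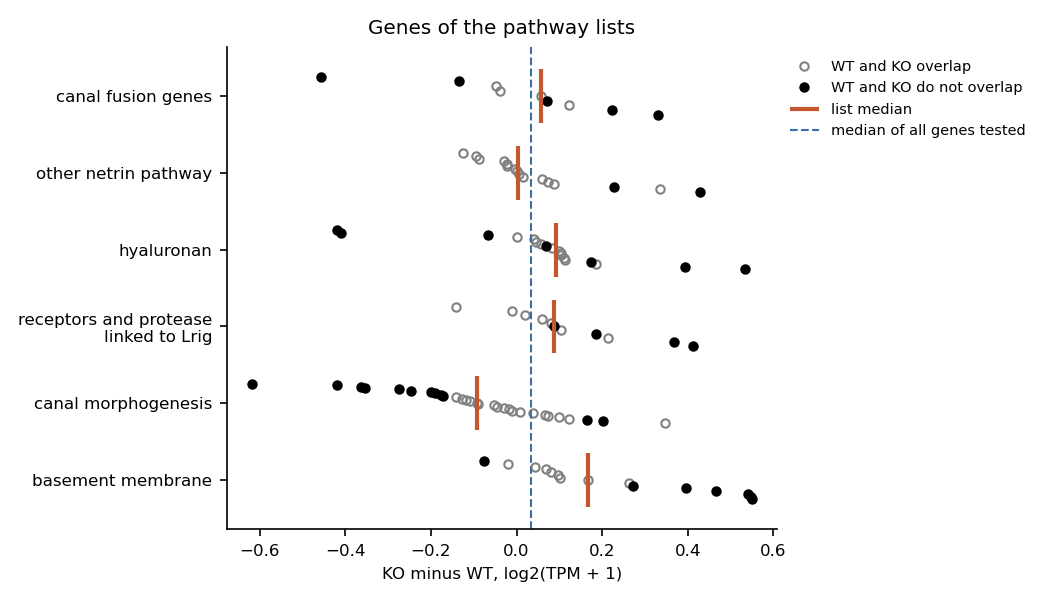
Difference KO minus WT on the log2(TPM + 1) scale for each tested gene of the canal fusion group and of the 5 lists, as black points where WT and KO do not overlap. Orange bars are list medians and the dashed line is the median of all 14496 genes, 0.03. The basement membrane median is 0.17 and the canal morphogenesis median -0.09.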

How the data were processed

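RNA from otic vesicles was sequenced in 2 WT and 2 KO libraries. The authors deposited gene-level TPM, length-scaled abundances that sum to 1000000 per library. Salmon 0.9.1 and GRCm38 are named per the submitters' processing notes; for the annotation release and the summing of transcripts, the sources used here give nothing. All nonzero values become whole at the sixth decimal when multiplied by 4 (KO 2: by 3; tolerance 0.02 of a step), so they look like means of 4 and 3 estimates. TPM keeps no depth, so counting error could not be computed.

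Identifiers were matched without version to GENCODE M21, which named 34582 of 34866 genes and gave the coordinates; Hjv was matched through its RefSeq synonym and Ntn3 had no matching row. KO and WT were compared with limma 3.58.1 (R 4.3.3) after log2 transformation of the deposited TPM with a pseudocount of 1. Genes that averaged 1 TPM or more were tested, with a genotype term alone and a trended variance; p-values were two-sided and adjusted by Benjamini and Hochberg (threshold 0.05). Such differences understate changes of low genes. The fit was tested on simulated data. The members and lists were chosen with earlier results of these data known. Named genes are the members, Meis2, other family members and the 2 genes of each list with the smallest p. The hyaluronan genes lower without overlap are named as well. Marker genes named are mostly among the most abundant of their list or at 0. Low hindbrain and surface ectoderm markers were added because they differed from the abundant ones. The ratios and the laminin count were chosen after values were seen. Alternatives were pseudocounts of 0.1 and 5 TPM, no filter or one at 5 TPM, median-of-ratios and quantile scaling, no variance trend, a replicate block, leaving out each library and, added later, protein-coding genes only.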

Additional observations from a re-analysis of the deposited data

How the results depend on the processing

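Over the 13 alternatives (Dcc, below 1 TPM, had a fit only with no filter, and Ntn4 had none with the filter at 5 TPM), 0 of the 10 genes and 0 genes of the 5 lists were called under any. Over all genes, limma called 0 in every alternative but the one without KO 1, where it called 2 (Gm6472 and Gm10240), and counts for the libraries left out ranged from 0 to 2; the cause was not tested. Lrig1 stayed between 0.28 and 0.36, Unc5c between 0.16 and 0.29, Neo1 between 0.03 and 0.08, Unc5b between -0.22 and -0.05 and Ntn1 between -0.69 and -0.22, each with 1 direction throughout. In 7 cases a direction reversed, each with a library left out: Lrig2 was at 0.050 without WT 2, Ntn4 at 0.04 without WT 1 and 0.11 without KO 2, Has2 at -0.07 without KO 1 and -0.11 without WT 2, and Lrig3 at -0.10 without KO 1 and -0.02 without WT 2. With each library left out in turn, Lrig2 ranged from -0.15 to 0.050, Ntn4 from -0.19 to 0.11, Has2 from -0.11 to 0.36 and Lrig3 from -0.10 to 0.21. With 3 libraries the lone one is assumed to vary like the other genotype's.

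The labels give replicate numbers but no shared litter or day. Across 14496 genes the same-numbered deviations correlated at 0.42, with only 2 pairs. With the number as a replicate block, limma again called 0 genes, 0 of the 10 and 0 in each list, while genes at an unadjusted p under 0.05 went from 507 to 1178; the differences stay as they were (Lrig1 0.33, Ntn1 -0.46).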
